A study of Rattus norvegicus with 20 samples.

Results

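Gene expression of rat dorsal root ganglia was compared directly between the chronic constriction and the Seltzer injury of the sciatic nerve, 21 days after surgery. The comparison holds 6 of the 20 arrays of the series: 3 of ganglia after chronic constriction injury (CCI, titled "CC1" at this day) and 3 of ganglia after the Seltzer injury. Each array read total RNA of ganglia from the operated side. The labels describe the Seltzer samples as taken after sciatic nerve transection surgery. They give no strain, sex, age or pooling of animals and do not say that replicates came from separate rats, so p-values measure the spread between these samples, which may be technical. Sham-operated ganglia of the same day (n = 3) are given for reference and do not enter the difference, but they bear on the spread used by the test. CCI (n = 3) and Seltzer (n = 2) ganglia at 14 days show the same contrast in other samples. The main test took its spread from all 8 groups of the series. Besides those named, it used sham ganglia at 14 and 50 days and Seltzer ganglia at 50 days (n = 2 each). Members were all 8740 probe sets left once 59 array controls had been set aside, and the 1951 with a mean intensity above 250 in either group are preferred below.

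A dorsal root ganglion holds the cell bodies of sensory neurons, wrapped by satellite glia and joined to the nerve by axons in Schwann cell sheaths. In CCI, loose ligatures around the sciatic nerve damage part of its fibres, and in the Seltzer model part of the nerve is injured by a tight ligature; both leave the limb hypersensitive. Neurons whose axons are cut switch on transcription factors such as Atf3 and peptides such as galanin and neuropeptide Y, and lower peptides and channels of resting pain neurons.

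The arrays share a scale: the mean intensity after trimming 2% at each end lay between 150.1 and 150.2 on all 20. CCI replicate 1 stood apart. Its median intensity was 76.7, against 43.6 to 50.2 on the other 5 arrays, its background level (95 of 100 of its negative values are closer to 0) was 498.7, against 208.6 to 291.2, and 12.8% of its probe sets lay above background, against 17.4% to 21.2%. Its log2 values correlated with the other 5 arrays at r = 0.740 to 0.788 across probe sets, while CCI replicates 2 and 3 correlated at 0.933 and the Seltzer arrays at 0.870 to 0.925 with each other. Its label alone among the 6 adds a lot batch, without saying of what. Results are therefore given with and without it. The defining genes of sensory neurons were bright on all 6 arrays: peripherin (Prph) ran from 4701 to 6334 in CCI and from 4858 to 6999 in Seltzer ganglia.

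Few genes separated the models. Of 8740 probe sets, 10 passed an adjusted p of 0.05 in limma's test on log2 intensity (0.114%), 2 higher in CCI (0.0229%) and 8 lower (0.0915%), and 809 had an unadjusted p below it (9.26%). The genes lower in CCI were led by muscle genes (Ckm, Acta1, Tpm1) and included fibronectin (Fn1). Both probe sets higher in CCI have no gene symbol in the platform's table. On all 10 the CCI and Seltzer arrays did not overlap, which a pass on the same arrays makes likely. Over all 8740 probe sets, the CCI arrays lay wholly above the Seltzer arrays for 439 and wholly below for 483. For 7 of the 10 the Seltzer mean lay between the CCI and the sham mean. The share of this order over all probe sets was not counted. With CCI replicate 1 left out, 17 probe sets passed (0.195%; 9 higher, 0.103%, and 8 lower, 0.0915%), 6 of them among the 10. The count also moved with other arrays: it was 53 without Seltzer replicate 2, 22 without CCI replicate 2, 16 without CCI replicate 3 and 5 without Seltzer replicate 3.

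How the spread was estimated set how many passed. The main fit took it from all 8 groups. With sham arrays left out of the fit, 11 passed (0.126%; 5 higher, 0.0572%, and 6 lower, 0.0686%), and 5 of these were among the 10. Without sham arrays, Ckm (adjusted p = 0.0204 in limma's test) and Myh6 (0.00983) still passed. The calls of Acta1 (0.0906), Tpm1 (0.129) and Fn1 (0.133) were lost, as were those of rc_AA859885_at (0.0906) and rc_AI176460_s_at (0.0503). From the 6 arrays alone, limma's test passed 0 and left 361 with an unadjusted p below 0.05 (4.13%). With each array centred on its median, which lowers the differences of all probe sets by 0.18 on the log2 scale at their median, 4 passed, 0 higher and 4 lower in CCI. With quantile normalization 22 passed, 8 higher and 14 lower. With the adjustment made over the 1951 probe sets of mean above 250 alone, 24 passed (1.23%; 9 higher, 0.461%, and 15 lower, 0.769%), 9 of them among the 10. Among the bright probe sets, the CCI arrays lay wholly above the Seltzer arrays for 128 of 1951 (6.56%) and wholly below for 163 (8.35%). A probe set could enter the 1951 through the group where it was high on these same arrays. This favours groups that do not overlap, so the 24 and these shares are descriptions only. Of the 4736 genes, taken without this brightness rule, 5.45% lay wholly above and 5.19% wholly below.

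**Figure D1:**
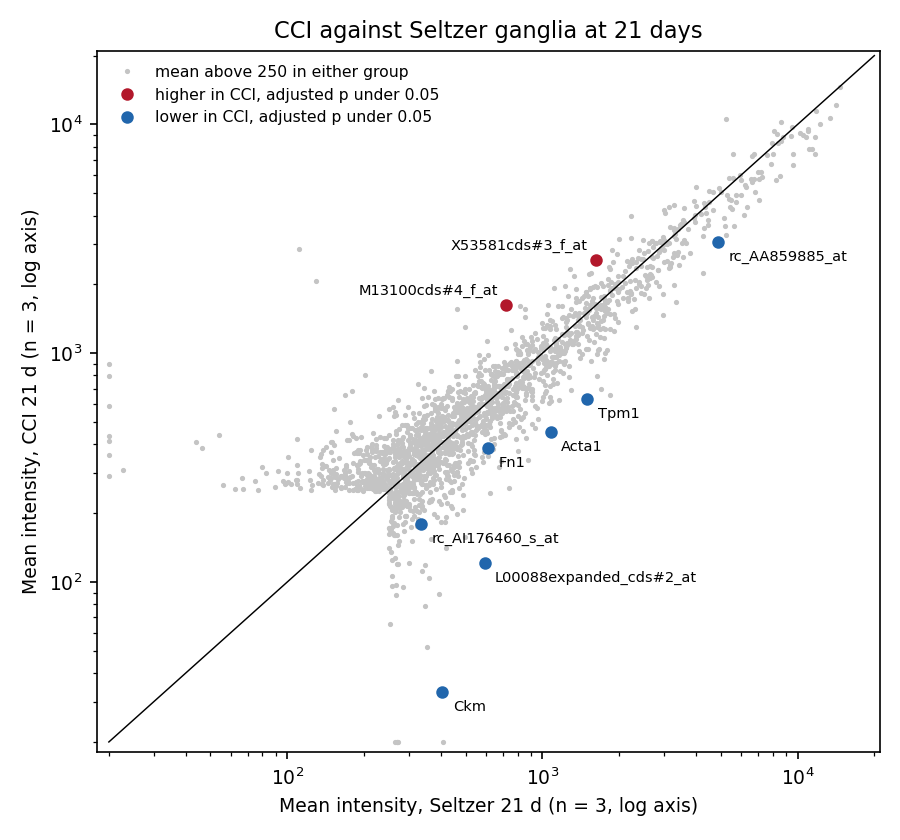
Mean intensity of each probe set with a mean above 250 in CCI (y axis) or Seltzer (x axis) ganglia at 21 days, 3 arrays each, both axes on a log scale, with means below 20 drawn at 20 and the line marking equal means. The 9 coloured probe sets are those of this brightness past an adjusted p of 0.05: 2 above the line and 7 below it.

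Skeletal muscle genes made up most of the genes with a symbol that passed the threshold lower in CCI. Actin of skeletal muscle (Acta1), which builds the thin filament, creatine kinase of muscle (Ckm), which renews ATP for contraction, and tropomyosin 1 (Tpm1), which lies along the thin filament and is also made in other cells, all passed the test. Their promoters are shown because the genes were lower together; the windows are the 250 bases before the gene start in RefSeq's GRCr8 rat assembly, 5′ to 3′ on the gene's strand. Capitals mark an E-box (CANNTG, the site class of MyoD family factors), the TATA box letters TATAAA on either strand, or a CArG box, the site class of serum response factor. The windows are chr19:68784195-68784444 (minus strand) for Acta1, chr1:88189211-88189460 (plus strand) for Ckm and chr8:76543416-76543665 (minus strand) for Tpm1.
Acta1: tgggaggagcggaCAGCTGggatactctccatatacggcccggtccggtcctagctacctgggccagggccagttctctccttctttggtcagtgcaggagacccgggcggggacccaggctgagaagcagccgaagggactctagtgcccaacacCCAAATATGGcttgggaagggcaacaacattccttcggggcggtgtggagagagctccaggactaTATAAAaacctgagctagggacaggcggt
Ckm: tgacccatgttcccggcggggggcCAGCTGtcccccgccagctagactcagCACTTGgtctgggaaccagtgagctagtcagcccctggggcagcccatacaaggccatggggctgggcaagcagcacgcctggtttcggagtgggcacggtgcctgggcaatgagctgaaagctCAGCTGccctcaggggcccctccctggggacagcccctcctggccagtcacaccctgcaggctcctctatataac
Tpm1: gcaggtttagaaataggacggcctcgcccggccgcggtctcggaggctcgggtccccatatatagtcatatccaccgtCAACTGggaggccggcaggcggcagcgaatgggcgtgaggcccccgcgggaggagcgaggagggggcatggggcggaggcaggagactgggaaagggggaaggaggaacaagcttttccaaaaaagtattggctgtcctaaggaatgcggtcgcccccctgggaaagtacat

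The Acta1 window held 1 E-box, 1 TATA box and 1 CArG box, the Ckm window 3 E-boxes and the Tpm1 window 1 E-box. No motif matches overlapped, and a search for the MEF2 site matched none of the 3 windows. Of 33469 windows of this length in the table, 65.5% held an E-box, 12.9% the TATA box letters, 1.50% a CArG box and 2.96% a MEF2 site. These matches describe letters, not bound sites.

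Acta1 intensity was 421, 497 and 434 on the CCI arrays and 780, 1364 and 1088 on the Seltzer arrays, with sham at 1383, 1803 and 1741. Every CCI array lay below every Seltzer array, and every Seltzer array below every sham array. The means were 450.7 ± 41.0 and 1077 ± 292.2 (SD, n = 3 each), a difference of -1.20 ± 0.19 on the log2 scale (standard error; adjusted p = 0.0379 in limma's test), or 2.29-fold. The call was lost without CCI replicate 1 (-1.15, adjusted p = 0.0762; range over 22 alternatives 0.00335 to 0.822, 13 of them past the threshold).

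Ckm was at 39.9, 8.39 and 50.8 in CCI and at 574, 366 and 277 in Seltzer ganglia. No CCI array had it above background, and 2 of the 3 Seltzer arrays did; sham arrays read 1372, 707 and 735. The fitted difference was -3.17 ± 0.51 (adjusted p = 0.0379, limma), and against the background level of the CCI arrays the Seltzer level was at least 1.25-fold higher. Its adjusted p was 0.0508 without CCI replicate 1 (range over 22 alternatives 0.0053 to 0.822, 10 past the threshold).

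Tpm1 read 424, 586 and 886 in CCI and 1576, 1274 and 1655 in Seltzer ganglia on its brightest probe set, a 2.43-fold difference (-1.28 ± 0.21, adjusted p = 0.0379; without CCI replicate 1 -1.03, adjusted p = 0.0465; range over 22 alternatives 0.00343 to 0.89, 8 past the threshold). The groups did not overlap. Of the 5 probe sets of Tpm1, 4 were lower in CCI; another of them, X02412_at, read 658, 354 and 376 in CCI and 655, 779 and 628 in Seltzer ganglia (-0.60, adjusted p = 0.328). It passed in 3 of 22 alternatives (range 0.00587 to 0.89): with array weights (-0.89, adjusted p = 0.00587), without CCI replicate 1 (-0.88, 0.0156) and without both replicate 1 arrays (-0.91).

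The probe set L00088expanded_cds#2_at, which has no symbol in the platform's table, ran the same way: 95.6, 128 and 141 in CCI, 769, 614 and 399 in Seltzer and 1052, 763 and 740 in sham ganglia. All CCI arrays were below background and all Seltzer arrays above it. The difference was -2.12 ± 0.22 (adjusted p = 0.00203), at least 1.83-fold, and it passed in 19 of 22 alternatives, that without CCI replicate 1 among them (adjusted p = 0.00477, range 0.000344 to 0.822). A cardiac myosin heavy chain, Myh6, also passed (-2.61 ± 0.37, adjusted p = 0.0231), but its probe set was above background on none of the 6 arrays (-61.6, -46.0 and -27.2 against 122, 47.9 and 89.9), so no fold is given.

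Other contraction genes had the same direction without passing. The calcium pump of fast muscle, Atp2a1, read -73.1, 115 and 114 in CCI and 425, 367 and 267 in Seltzer ganglia (-2.49, adjusted p = 0.158); without CCI replicate 1 it passed at -1.48 (adjusted p = 0.00287, range over 22 alternatives 0.00287 to 0.89). The fast myosin light chain Myl11 read -65.1, 54.9 and 17.9 against 132, 321 and 359 (-2.97, adjusted p = 0.0525). Atp2a1 and Myl11 were each above background on no CCI array and on 2 Seltzer arrays, so the sizes of their log2 differences are uncertain. Against the background level, Atp2a1 was at least 1.12-fold higher in Seltzer ganglia, and for Myl11 no fold is given. Myosin heavy chain 4 (Myh4) read 649, 203 and 264 against 545, 1006 and 852, so that CCI replicate 1 fell among the Seltzer arrays (-1.20, adjusted p = 0.314).

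Of 41 muscle genes measured, 3 passed lower and 0 higher in CCI, against 4 lower and 0 higher among all 4736 genes with a probe set; 23 of the 41 were above background on none of the 6 arrays. Over all 41 the median difference was -0.01 (-0.19 without CCI replicate 1); the CCI arrays lay wholly above the Seltzer arrays for 5 and wholly below for 7, where 5.45% and 5.19% of all genes did so. Among the 15 with a mean above 250 over the 20 arrays, 11 were lower in CCI and 4 higher, with a median difference of -0.63, against 0.01 over the 1151 genes of that brightness. The median of the 15 was -1.03 without CCI replicate 1. The summed intensity of the 41 genes ran from 6326 to 10818 in CCI, from 9917 to 10722 in Seltzer and from 11440 to 14182 in sham ganglia, so on the sum the CCI and Seltzer arrays overlapped. Whether these transcripts came from muscle carried along with the ganglia was not tested. In whole tissue, fewer cells of a type and less RNA per cell cannot be told apart.

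**Figure D2:**
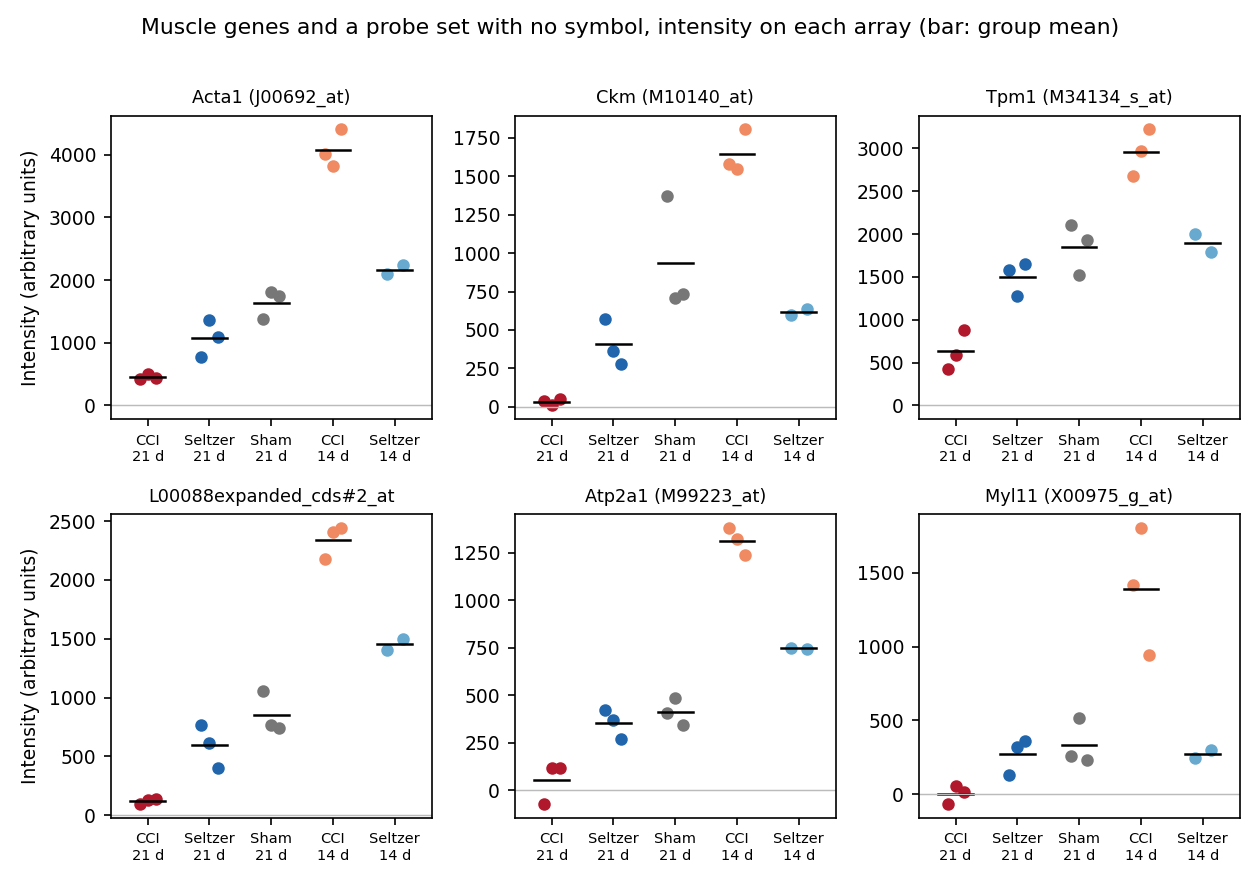
Intensity on each array (points, arbitrary units on linear axes that differ between panels) of 5 muscle genes and L00088expanded_cds#2_at in CCI, Seltzer and sham ganglia at 21 days and CCI and Seltzer ganglia at 14 days, with a bar at each group mean and a grey line at 0. The 21-day CCI arrays sit below all 21-day Seltzer arrays in each panel, and the 14-day CCI arrays sit above all 14-day Seltzer arrays.

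At 14 days Acta1, Ckm, Tpm1, L00088expanded_cds#2_at, Atp2a1 and Myl11 had higher values in CCI, while Myh4 (1886, 1804 and 2214 against 2280 and 2332; -0.23) and the Tpm1 probe set X02412_at (-0.05) did not. Acta1 read 4017, 3818 and 4406 in CCI and 2091 and 2242 in Seltzer ganglia (0.91, adjusted p = 0.0467), and Ckm read 1579, 1546 and 1805 against 600 and 635 (1.39, adjusted p = 0.399). The 15 bright muscle genes had a median difference of 0.43 at 14 days, with 13 of 15 higher in CCI. The change of the difference between days, tested as an interaction in the same fit, was -2.10 ± 0.28 for Acta1 (adjusted p = 0.00129), -4.55 for Ckm (0.00761), -1.91 for Tpm1 (0.00585) and -5.21 for Myl11 (0.00468). Summed muscle intensity was 20651 to 22177 in the 14-day CCI and 13731 to 14240 in the 14-day Seltzer arrays, both above every 21-day CCI and Seltzer array. Among all probe sets, 153 differed between the models at 14 days (1.75%; 75 higher in CCI, 0.858%, and 78 lower, 0.892%) and the difference changed between days for 125 (1.43%). Of the 10 probe sets past the threshold at 21 days, 8 had the opposite sign at 14 days, and the change between days passed for 9. These 10 were picked by their 21-day difference, which is a term of the change between days. A large change was thus favoured in advance, and the 9 are no separate support. The share of opposite signs over all probe sets was not counted. Of the 153 called at 14 days, 71 had the same sign at 21 days.

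**Figure D3:**
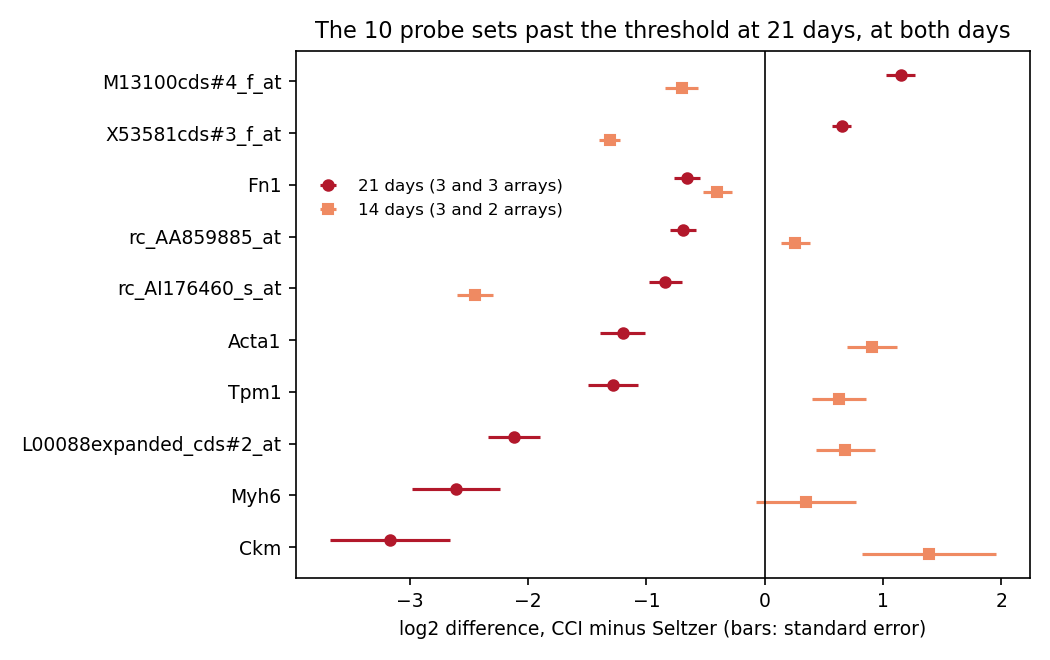
Log2 difference between CCI and Seltzer ganglia (x axis, with standard errors) of the 10 probe sets past the threshold at 21 days, at 21 days (circles) and 14 days (squares). Fn1 and rc_AI176460_s_at lie below 0 at both days, and the other 8 lie on opposite sides of 0.

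Both probe sets higher in CCI, M13100cds#4_f_at and X53581cds#3_f_at, lack a gene symbol. M13100cds#4_f_at read 1714, 1682 and 1472 in CCI, 745, 730 and 692 in Seltzer and 294, 402 and 454 in sham ganglia, a tight 2.22-fold difference (1.15 ± 0.12, adjusted p = 0.00203), past the threshold in 18 of 22 alternatives. X53581cds#3_f_at read 2511, 2475 and 2645 against 1825, 1428 and 1618, with sham at 795, 778 and 720 (0.65 ± 0.08, adjusted p = 0.0112; 17 of 22 alternatives). For both, the 3 groups stood in the order CCI, Seltzer, sham without overlap. At 14 days both were lower in CCI: the former read 480, 531 and 480 against 750 and 888 (-0.70, adjusted p = 0.0192), the latter 746, 751 and 799 against 2036 and 1809 (-1.31, adjusted p = 3.18e-06). Probe sets whose names share these stems were not all alike: M13100cds#5_s_at read 1952, 1796 and 2048 against 1743, 887 and 713 (0.89, adjusted p = 0.311), whereas M13100cds#1_at read 5734, 7303 and 9173 against 8584, 5336 and 10194 (-0.09). A probe set of another stem with no symbol, X05472cds#1_s_at, read 2681, 2001 and 2292 against 1663, 1133 and 1067 (0.86, adjusted p = 0.0505).

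Fibronectin (Fn1), a matrix protein laid down by Schwann cells and fibroblasts, was lower in CCI: 472, 343 and 337 against 603, 651 and 580 in Seltzer ganglia, with sham at 437, 389 and 377. Here it was the Seltzer arrays that lay above sham, and CCI replicates 2 and 3 lay below every sham array. Of the 5 probe sets of Fn1, 4 were lower in CCI. On the probe set given, the difference was -0.66 ± 0.11 (adjusted p = 0.0439), or 1.58-fold. It was -0.82 without CCI replicate 1 (adjusted p = 0.00171; range over 22 alternatives 0.000415 to 0.89, 8 past the threshold). At 14 days Fn1 read 473, 415 and 440 in CCI and 600 and 576 in Seltzer ganglia (-0.40, adjusted p = 0.185), and no change of the difference between days was called (adjusted p = 0.662).

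Of 34 matrix genes measured, Fn1 alone passed (1 lower, 0 higher); for 7 of them the CCI arrays lay wholly below the Seltzer arrays and for 0 wholly above, where 5.19% and 5.45% of all genes did so. Collagen 3 (Col3a1) read 718, 1217 and 1167 against 1777, 1466 and 1730 (-0.71, adjusted p = 0.235), and the collagen-binding proteoglycan lumican (Lum) 266, 314 and 166 against 337, 531 and 440 (-0.79, adjusted p = 0.337). The 17 bright matrix genes had a median of -0.34 (-0.19 without CCI replicate 1), 12 of them below 0, and all 34 had a median of -0.14.

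The last 2 of the 10 probe sets were rc_AA859885_at, with no symbol, and rc_AI176460_s_at, which the table assigns to several genes. The former read 2790, 3692 and 2685 in CCI and 4509, 5085 and 5077 in Seltzer ganglia (-0.69 ± 0.11, adjusted p = 0.0379; 0.0918 without CCI replicate 1, range over 22 alternatives 0.00436 to 0.89). The latter read 192, 189 and 158 against 371, 335 and 298 (-0.84 ± 0.14, adjusted p = 0.0379 in limma's test). Without CCI replicate 1 its adjusted p was 0.0508 (range over 22 alternatives 0.00875 to 0.822). It was above background on no CCI array and on all 3 Seltzer arrays, at least 1.08-fold higher in Seltzer ganglia. This probe set differed more at 14 days, at 183, 162 and 152 against 1078 and 883 (-2.45, adjusted p = 1.06e-06).

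Among injury peptides, galanin stood higher in CCI without passing the main test, and the others overlapped or were dim. Galanin (Gal), a peptide that axotomised neurons make, read 1391, 1293 and 1237 in CCI and 497, 547 and 446 in Seltzer ganglia, a 2.58-fold separation with spreads far smaller than the gap. The fit of all groups also takes in the sham arrays, where Gal lay at -11.3, 58.9 and 81.1, and gave 1.37 ± 0.55 (adjusted p = 0.466). It passed with sham arrays left out (adjusted p = 0.00983) and with a floor at 200 (0.000146), the only 2 of 22 alternatives in which it did (range 0.000146 to 0.883). Neuropeptide Y (Npy), another axotomy peptide, read 1999, 2636 and 2067 against 2467, 1171 and 995, so Seltzer replicate 1 fell within the CCI range (0.63 ± 0.53, adjusted p = 0.718). The secreted precursor Vgf read 674, 1103 and 1373 against 640, 748 and 772 (0.48, adjusted p = 0.589), and vasoactive intestinal peptide (Vip) was above background on none of the 6 arrays. The peptide Adcyap1 (PACAP) read 217, 367 and 350 against 234, 366 and 360 (-0.04, adjusted p = 1.0). Of 11 axotomy peptides measured 0 passed, 1 lay wholly higher in CCI and 0 wholly lower, where 5.45% and 5.19% of all genes did so. Of the 11, 7 were above background on none of the 6 arrays. The summed intensity was 4827 to 5674 in CCI and 2797 to 4117 in Seltzer ganglia.

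Peptides of resting pain neurons gave lower values in CCI only in part. Somatostatin (Sst) read 74.4, 209 and 189 against 592, 500 and 396, below background on all CCI arrays and above it on all Seltzer arrays (-1.65 ± 0.65, adjusted p = 0.46; at least 1.57-fold). Substance P precursor (Tac1) read 1969, 1249 and 1447 against 1698, 2375 and 2819 (-0.55, adjusted p = 0.547), and the calcitonin gene-related peptide gene Calca 2110, 1115 and 1255 against 1006, 1836 and 1525 (0.02, adjusted p = 1.0). For both, CCI replicate 1 was the highest of the CCI arrays. None of the 6 genes of this list passed (0 higher, 0 lower; median -0.51, and -0.32 without CCI replicate 1).

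**Figure D4:**
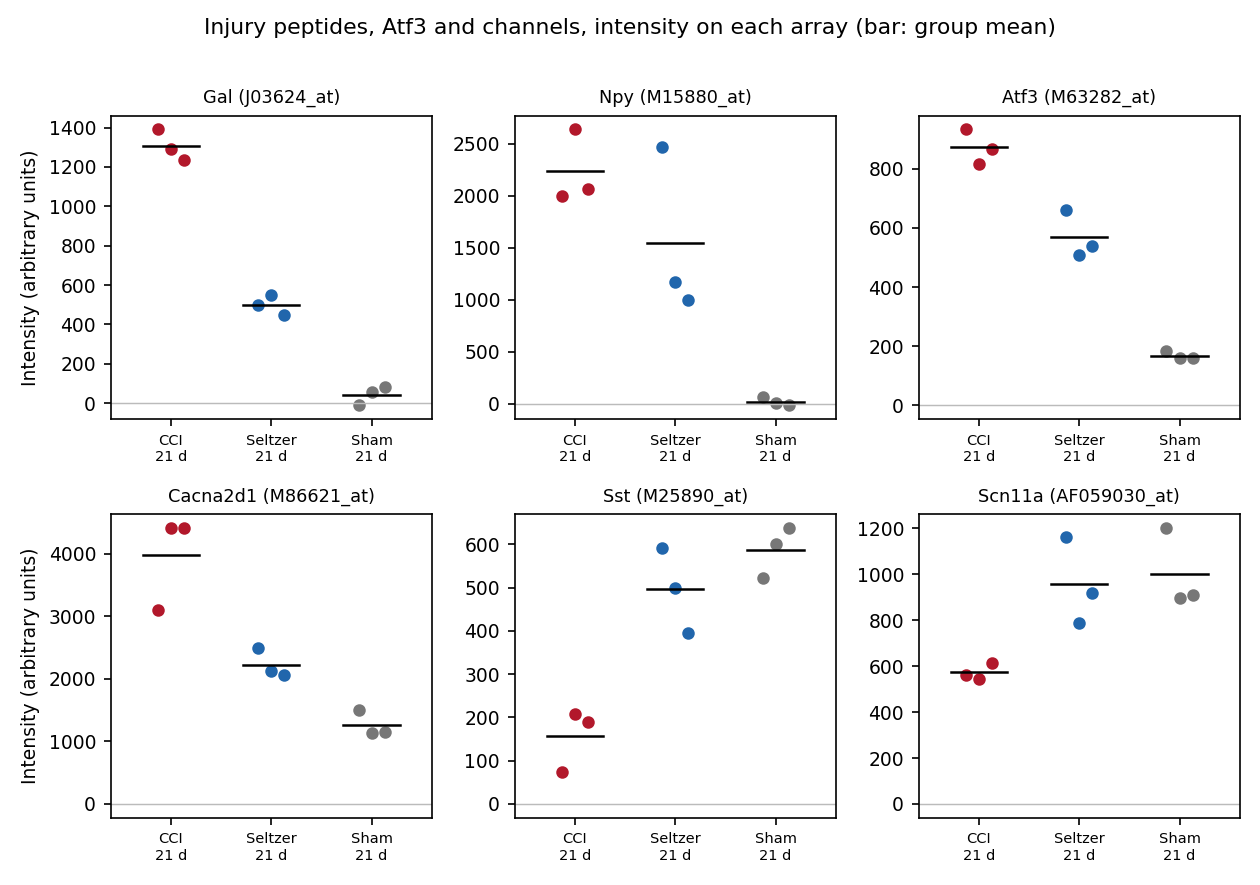
Intensity on each 21-day array (points, arbitrary units on linear axes that differ between panels) of Gal, Npy, Atf3, Cacna2d1, Sst and Scn11a in CCI, Seltzer and sham ganglia, with a bar at each group mean and a grey line at 0. CCI and Seltzer arrays do not overlap except for Npy, where Seltzer replicate 1 reads 2467.

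The channel subunit Cacna2d1 (alpha2delta-1), the binding protein of gabapentin, read 3096, 4409 and 4415 in CCI, 2492, 2128 and 2065 in Seltzer and 1497, 1139 and 1154 in sham ganglia. The 3 groups did not overlap, and the difference of 1.76-fold missed the threshold narrowly (0.82 ± 0.15, adjusted p = 0.0505). Without CCI replicate 1 it passed (0.99, adjusted p = 0.00617; range over 22 alternatives 0.00282 to 0.89, 6 past the threshold). It was also higher in CCI at 14 days (0.93, adjusted p = 0.00889). Of 14 calcium channel genes 0 passed, and 10 were above background on none of the 6 arrays.

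No sodium channel passed at 21 days. Scn11a (Nav1.9), which sets the resting excitability of these cells, read 563, 546 and 614 in CCI and 1161, 786 and 920 in Seltzer ganglia (-0.70 ± 0.20, adjusted p = 0.248), without overlap; at 14 days it was lower in CCI and passed (-1.02, adjusted p = 0.0331). Scn10a (Nav1.8) read 142, 272 and 267 against 437, 295 and 279 (-0.57, adjusted p = 0.479) and Scn9a (Nav1.7) 388, 314 and 280 against 409, 352 and 298 (-0.10, adjusted p = 0.898). Scn3a (Nav1.3), known to reappear after axotomy, read 559, 386 and 390 against 114, 322 and 366 (0.83, adjusted p = 0.579). Of its 2 probe sets, 1 was higher in CCI. Of the transducers, the heat-gated channel Trpv1 read 304, 279 and 235 against 395, 261 and 155 (0.09) and the ATP-gated P2rx3 829, 1006 and 1042 against 1278, 1009 and 1093 (-0.23); both overlapped. Among 10 sodium channel genes, 32 potassium channel genes and 16 transducers and markers of pain neurons, 0 passed.

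Among transcription factors and stress genes of the injured neuron, Atf3 read 933, 817 and 865 in CCI against 661, 508 and 540 in Seltzer and 183, 159 and 160 in sham ganglia, with no overlap between the 3 groups (0.61 ± 0.15, 1.52-fold, adjusted p = 0.201). Gadd45a, a DNA damage response gene, read 799, 558 and 351 against 76.3, 159 and 221, below background in all Seltzer arrays (1.83, adjusted p = 0.235; at least 2.03-fold). Jun, a partner of Atf3, read 365, 301 and 422 against 289, 260 and 294 (0.34, adjusted p = 0.833). At 14 days the differences were 0.53 for Atf3, -0.61 for Gadd45a and 0.07 for Jun, none past the threshold. For 4 of the 18 genes of this list CCI lay wholly above Seltzer and for 0 wholly below, where 5.45% and 5.19% of all genes did so, and 0 passed. The median of the 18 was -0.00 with and without CCI replicate 1, and 11 of them were above background on none of the 6 arrays. Of 7 bright members, 5 were above 0 and 2 below, Nr4a1 among the latter (-0.48). The small heat shock protein Hspb1, which protects axotomised neurons, had 4 probe sets, all higher in CCI; M86389cds_s_at read 273, 805 and 896 against 113, 134 and 257 (1.78, adjusted p = 0.101) and passed without CCI replicate 1 (2.31, adjusted p = 0.00379; range over 22 alternatives 0.00379 to 0.89), while rc_AA998683_g_at read 3255, 4965 and 4828 against 2540, 3184 and 3676 (0.46, adjusted p = 0.434).

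No growth or cytoskeletal gene passed. Gap43, a growth cone protein, read 2799, 2552 and 3036 against 1921, 2566 and 3287 (0.14), and Sprr1a 1737, 1439 and 1014 against 1491, 1362 and 1299 (-0.02). The neurofilament subunits Nefl, Nefm and Nefh had differences of -0.22, -0.01 and -0.18 with standard errors of 0.47, 0.38 and 0.36; for Nefl the Seltzer arrays ranged from 6339 to 14741 and the sham arrays from 5341 to 19046. The microtubule protein tau (Mapt) read 3300, 3911 and 3551 against 5923, 4797 and 6187 with sham at 3933, 3284 and 3115 (-0.64 ± 0.12, adjusted p = 0.0505). Of the 3 probe sets of Mapt, 2 were lower in CCI. At 14 days Mapt was higher in CCI (0.71, adjusted p = 0.0119), and the change between days passed (-1.36, adjusted p = 0.00106). One probe set of Map1b shows what CCI replicate 1 can do to a mean: it read 8169 there and 234 and 137 on the other CCI arrays, against 109, 86.5 and 138 (2.43, adjusted p = 0.49; 0.64 without that array). Of 10 cytoskeletal genes and 17 growth cone genes 0 passed.

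Most bright Schwann cell genes had lower values in CCI, with no call. The myelin proteolipid Mal read 739, 694 and 667 in CCI and 2962, 1098 and 1042 in Seltzer ganglia (-1.09, adjusted p = 0.286), myelin basic protein (Mbp) 915, 1481 and 1446 against 1899, 1531 and 1869 (-0.48, adjusted p = 0.489), and the neurotrophin receptor Ngfr, made by neurons and Schwann cells, 882, 1584 and 1454 against 2246, 2305 and 2441 (-0.87 ± 0.20, adjusted p = 0.125). None of these 3 overlapped between the groups. They were the only members of the 14 wholly lower in CCI, and 0 lay wholly higher. Of all genes, 5.19% and 5.45% did so. The myelin protein Pmp22 read 10023, 9702 and 9655 against 10352, 6266 and 11833 (0.10). In all, 0 of 14 Schwann cell genes passed, and 7 of 9 bright members were below 0 (median -0.46, and -0.26 without CCI replicate 1).

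Several immune genes had higher values in CCI, with no call. The median difference was 0.10 over the MHC class II list and 0.03 over the macrophage and complement list (0.07 and 0.15 without CCI replicate 1). Of their bright members, 4 and 5 were above 0, and 1 and 3 were below. The MHC class II chain RT1-Da, which presents antigen, read 1470, 1705 and 1489 in CCI, 1055, 754 and 757 in Seltzer and 495, 503 and 442 in sham ganglia, again with no overlap (0.86 ± 0.17, 1.82-fold, adjusted p = 0.082). Galectin 3 (Lgals3), a lectin of activated macrophages, read 705, 633 and 568 against 475, 381 and 365 (0.63 ± 0.12, adjusted p = 0.082). Lysozyme (Lyz2) read 2231, 2510 and 1930 against 1127, 1741 and 1716 (0.56, adjusted p = 0.582), cathepsin S (Ctss) 430, 385 and 318 against 351, 214 and 244 (0.48, adjusted p = 0.441) and the invariant chain Cd74 886, 1460 and 1210 against 971, 1062 and 988 (0.20, adjusted p = 0.746). The complement gene C1qb was above background on none of the 6 arrays. In sham ganglia Lgals3 read 423.5, 532.5 and 396.3, so its Seltzer arrays overlapped sham. At 14 days the differences were -0.12 for RT1-Da, -0.00 for Lgals3, 0.15 for Lyz2, 0.19 for Ctss and 0.55 for Cd74, none past the threshold. Of 12 MHC class II genes and 19 macrophage and complement genes 0 passed; 1 and 2 of them lay wholly higher in CCI (5.45% of all genes), and 0 and 1 wholly lower (5.19%), so that the counts are too small to set them apart from all genes.

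The mitochondrial complex III subunit Uqcrc2 read 627, 856 and 868 in CCI against 1337, 1206 and 1264 in Seltzer ganglia (-0.70 ± 0.14, adjusted p = 0.0776). Of 30 oxidative phosphorylation genes 0 passed; 18 of 25 bright members were below 0 (median -0.24). The 37 ribosomal protein genes had a median of 0.13, with 0 past the threshold.

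Since only Ckm, Tpm1, Acta1 and Fn1 had a symbol, a mean above 250 and a call, genes without overlap complete the picture as values. Of the 12 such genes higher in CCI, 10 were above background on no Seltzer array, so their differences have no order. They include Ddr1 (a collagen receptor; 384, 244 and 613 against -197, 138 and -369), Rnf130 (2225, 43.9 and 111 against -23.6, -0.622 and 34.2) and Arfgap1 (674, 298 and 340 against -78.5, 198 and 42.6). In Rnf130, as in Ccnd1 (cyclin D1; 1812, 297 and 304 against 237, 186 and 180), CCI replicate 1 alone is high. Pax8, Abcc9 and Rpl5 were below background on all Seltzer arrays, at least 1.19-fold, 1.29-fold and 1.22-fold lower there. Of the CCI arrays, Pax8 was above background on replicate 1 only, and Abcc9 and Rpl5 on 2 each. Abcc9 and Ddr1 have 3 probe sets each, and only 1 of the 3 was higher in CCI. Hdac2 was above background on none of the 6 arrays (460, 191 and 175 against 42.9, 88.7 and 92.2). Got2 read 1338, 1638 and 1337 against 1136, 1332 and 93.7, so that Seltzer replicate 3 alone is low. Of the 8 genes lower in CCI, 7 were above background on no CCI array. Among the 8 was Scarb1 (-457, -587 and -184 against 161, 556 and 95.7), a lipoprotein receptor above background on 1 of the 6 arrays and on all 3 sham arrays. Only 1 of the 3 probe sets of Scarb1 was lower in CCI. The 8 also held Anxa5 (-24.1, 428 and 372 against 849, 720 and 660), a calcium-dependent membrane-binding protein. Anxa5 passed without CCI replicate 1 (-0.86, adjusted p = 0.00531, range over 22 alternatives 0.00531 to 0.89). Ndufb8, Igfbp6, Inha and Gucy2c had -2.06, -1.89, -1.88 and -1.88, each with CCI replicate 1 below 0, and -0.84, -0.59, -0.81 and -0.78 without that array. The other probe set of Inha, M36453_at, had the higher mean in CCI (320.8 against 141.3), and the brightest of Ndufb8, rc_AA851403_g_at, read 1147 against 1033 on average; 2 of its 4 probe sets were lower in CCI.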

How the data were processed

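The authors deposited 1 intensity per probe set and array on a linear scale, with values below 0; no source used here gives the software, background step or scaling. Arrays shared a trimmed mean of about 150, computed from the values. Negative values were taken as 0 before log2(value + 16). A mean per group was fitted over all 8 groups (12 residual degrees of freedom) with limma 3.58.1 (lmFit, eBayes) in R 4.3.3, two-sided, with Benjamini-Hochberg adjustment over 8740 probe sets and a threshold of 0.05; statmod 1.5.0, Python 3.11.15 and matplotlib 3.10.9 were also used. The fit was tested on simulated data. A sham level never enters the difference, but sham arrays bear on the spread. The background level of an array is the size below which 95% of its negative values lie. If no array of the dimmer group exceeded it, the fold is a lower bound, set against the higher of that level and the measured value on each array.

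Gene symbols are those of the platform's annotation with current rat names: 7006 probe sets had 1 symbol, 308 several and 1426 none. In counts of genes (4736) the probe set of highest mean stands for a gene. The probe sets compared, the gene lists (32, written from general knowledge) and the rule for named genes were chosen with earlier results of these data known, so list counts are descriptions. The rule names up to 12 genes in each direction with a mean above 250, first those past the threshold and then those whose groups do not overlap, up to 4 of the largest differences per list, and a set of injury, immune, myelin and muscle genes. Myh4, Myh6, X02412_at, the second Hspb1, Inha and Ndufb8 probe sets, probe sets without 1 symbol and the genes in the first paragraph of the other observations were chosen after their values were seen. Replicate numbers did not pair the arrays: deviations of same-numbered CCI and Seltzer arrays correlated at 0.019, 0.101 and -0.0053.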

Additional observations from a re-analysis of the deposited data

Results flagged for a closer look

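For 15 probe sets named above, the difference between CCI and Seltzer ganglia was itself different at 21 and at 14 days (limma's interaction test over all 20 arrays, adjusted p under 0.05). The change of the log2 difference, 21 minus 14 days, was -5.21 for Myl11, -4.55 for Ckm, -2.96 for Myh6, -2.80 for L00088expanded_cds#2_at, -2.10 for Acta1 and -1.91 for Tpm1. It was -1.36 for Mapt, -1.33 for Col3a1 and -0.94 for rc_AA859885_at. It was 2.25 for the ribosomal protein gene Rpl5, 2.18 for M13100cds#5_s_at, 1.96 for X53581cds#3_f_at, 1.95 for X05472cds#1_s_at, 1.85 for M13100cds#4_f_at and 1.61 for rc_AI176460_s_at. Probe sets named for a large 21-day difference are favoured here, since that difference is a term of the test. The day and the set of arrays change together here and cannot be told apart.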

How the results depend on the processing

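The count of 10 moved with most settings. It was 22 with quantile normalization, 4 with arrays centred on their median, 24 with probe sets of mean above 250 only, 0 from the 6 arrays alone, 6 without the Seltzer 50-day arrays, 19 with trend and robust settings and 24 with array weights; leaving out 1 array at a time gave 5 to 53. Chosen after seeing the data, the 6 arrays without CCI replicate 1 gave 6, none of them among the 10, and leaving out both 21-day replicate 1 arrays gave 22. With the replicate block the count was 13, and with the block in the 6 arrays alone 0; the numbers only name the arrays. With 1 or 64 added it was 12 and 10, with a floor of 200 it was 8, and without the dimmest probe sets 7. All 10 kept their sign in every setting that tested them except Myh6, at 0.00 with the floor of 200. At 14 days, 153 became 84 with centring, 92 without the dimmest probe sets and 797 with array weights (148 to 249 with 1 array of the 21-day groups left out); the 125 changes between days became 67, 74 and 236 (102 to 155). Without CCI replicate 1, probe sets whose groups do not overlap rose from 439 to 886 (higher) and 483 to 878 (lower), and bright ones from 128 to 250 and 163 to 251, with 2 arrays left against 3. The median of all 41 muscle genes moved from -0.01 to -0.19.

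Signs turned only for genes without a call. With arrays centred, Calca was at -0.15, Gap43 -0.04, Pmp22 -0.08, Ret -0.12 and Trpv1 -0.08. With quantile normalization, M13100cds#1_at was at 0.02, Nefm 0.04, Prph 0.03, Sprr1a 0.06 and Trpv1 -0.06, and with the floor of 200 Trpv1 was at -0.02. With array weights, Adcyap1 was at 0.03, Calca -0.38, M13100cds#1_at 0.22, Ret -0.08, Nefh 0.07, Nefl 0.10, Nefm 0.12 and Prph 0.16. Without CCI replicate 1 (all groups or the 6 arrays), Adcyap1 was at 0.18, Calca -0.25, M13100cds#1_at 0.08, Prph 0.07, Ret -0.04 and Vip -0.04. With both replicate 1 arrays out, Calca was at -0.49, Gap43 -0.06, M13100cds#1_at 0.15, Ret -0.06, Nefh 0.09, Nefl 0.12, Nefm 0.09 and Prph 0.18. Leaving out 1 array at a time gave Adcyap1 -0.25 to 0.18, Calca -0.25 to 0.21, Gap43 -0.06 to 0.33, M13100cds#1_at -0.36 to 0.10, Nefh -0.57 to 0.15, Nefl -0.56 to 0.05, Nefm -0.26 to 0.15, Pmp22 -0.18 to 0.28, Prph -0.22 to 0.07, Ret -0.04 to 0.15, Sprr1a -0.19 to 0.19, Trpv1 -0.23 to 0.40 and Vip -0.04 to 0.67. The causes were not tested. The number of arrays limits the precision.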

Other observations

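Leaving out CCI replicate 1 added 11 probe sets to those past the threshold, and 5 of these were above background on none of the 6 arrays. Among the latter, the bradykinin receptor gene Bdkrb2 read 13.2 and 12.7 on the 2 CCI arrays kept and -1.68, -10.2 and -4.56 on the Seltzer arrays, the potassium channel gene Kcnj10 22.9 and 23.4 against -133, -47.2 and -8.87, and Akr1b1 75.3 and 75.9 against 124, 128 and 154. All lie below the background level of their array.

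The remaining lists had no member past the threshold. Among 24 heat shock genes, 0 lay wholly higher and 3 wholly lower in CCI (median -0.15), and among 15 genes of the neurotrophin and GDNF systems 0 and 2 (median -0.09), where 5.45% and 5.19% of all genes did so; the receptor Ret read 1322, 1088 and 1074 against 1087, 1270 and 1002. The 26 synaptic vesicle genes had a median of -0.16, the 14 MHC class I genes 0.01, the 9 interferon-response genes 0.21 and the 17 cholesterol genes 0.28. Medians were 0.03 for 43 GABA, glutamate, glycine and nicotinic receptor genes, 0.00 for 56 opioid, monoamine and peptide receptor genes, -0.06 for 14 ion pump genes and 0.02 for 30 growth factor genes. Without CCI replicate 1 the medians were -0.09 for heat shock, -0.30 for neurotrophin and GDNF, -0.09 for synaptic vesicle, 0.06 for interferon-response and 0.08 for cholesterol genes, and -0.18 and -0.14 for the first receptor list and the growth factor list.

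Markers of other cells were mostly dim. All 12 endothelial and pericyte markers and 12 of 13 T and B cell markers were above background on none of the 6 arrays, as were 9 of 10 neutrophil and mast cell markers. The summed intensity of the 4 red blood cell markers ran from 8830 to 9717 in CCI and from 7627 to 9267 in Seltzer ganglia, that of 17 fat cell genes from 5836 to 7268 and 5529 to 8726, and that of 9 satellite glia markers from 12250 to 14336 and 8399 to 25362.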
